A study of Mus musculus with 8 samples.

Results

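Milk is made by the luminal cells of the mammary alveoli, and its proteins fall into the caseins, which clot, and the whey proteins, which stay in solution. Wap, Glycam1, Lao1, Trf and Wfdc18 are 5 genes of whey and other secretory proteins, out of the 55933 genes in the deposited table. They were chosen by name as markers of secretory differentiation, with the cKO and control values of this same table already known, so their differences between the groups are given as a description, with no test. The values describe mammary epithelial cells of C57BL/6 mice at pregnancy day 14.5, with 4 libraries from control mice and 4 from Bmpr1a cKO mice. The cKO mice carry K14-rtTA, teto-Cre and floxed Bmpr1a, so that doxycycline switches on Cre in cells with an active K14 promoter. In this tissue these are the contractile myoepithelial cells of the ducts and alveoli. The controls were littermates, which the sample labels call WT, and their exact alleles are not given in the sources used here. No sorting by layer came before the RNA was taken, so each library mixes luminal, myoepithelial and remaining stromal cells. Fat was meant to be lost during enzyme treatment of the gland (hyaluronidase with collagenase), and an ammonium chloride step lysed red blood cells.

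Wap encodes whey acidic protein, a major rodent whey protein with domains rich in cysteine, and Wfdc18 encodes a small secreted protein of the same domain family that is also known as Expi. Glycam1 encodes a mucin-like secreted glycoprotein that was described both in milk and as an L-selectin ligand of high endothelial venules. Lao1 encodes a secreted L-amino acid oxidase of milk, an enzyme that releases hydrogen peroxide, and Trf encodes transferrin, the iron carrier that the liver secretes into plasma and the mammary gland into milk. Milk protein genes are switched on during pregnancy by prolactin acting through JAK2 and STAT5, together with glucocorticoid receptor, C/EBP, NF1 and ELF5 factors.

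Between 16123108 and 19896988 reads lay on genes in each library. Bmpr1a, the targeted gene, which encodes a type I BMP receptor, was measured at 10.6, 11.7, 8.74 and 9.52 FPKM (fragments per kilobase of a gene, with libraries brought to a common depth) in control replicates 1 to 4. Its FPKM were 12.0, 12.0, 10.2 and 10.4 in the 4 cKO libraries, in the order of their numbers. The groups overlapped, with a difference of 0.13 on the log2(FPKM + 1) scale (SE 0.10, limma adjusted p = 0.560). No loss was thus seen in the value of the whole gene, and these values do not check the labels. The value of a whole gene need not fall when single exons are deleted. The paper reports Bmpr1a in luminal cells too, while Cre was meant to act in myoepithelial cells, and these unsorted libraries hold both. Why no loss was seen was not tested. The 7 luminal markers were abundant in all 8 libraries, with Krt8 at a mean of 1771 FPKM, and the 9 myoepithelial markers were present too, led by Acta2 at 889 FPKM.

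Wap was measured at 24.3, 25.3, 62.8 and 41.6 FPKM in control replicates 1 to 4. The cKO replicates 1 to 4 gave 148, 128, 146 and 323 FPKM for Wap. The groups did not overlap, controls 3 and 4 lay above controls 1 and 2, and cKO replicate 4 stood far above the other cKO libraries. Mean Wap levels were 38.5 ± 18.1 FPKM and 186 ± 91.7 FPKM in turn (SD, n = 4 each), a ratio of means of 4.84. Between 424 and 6048 reads lay on Wap in a library, so counting error was small beside the spread between mice.

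Wfdc18, the other gene of this domain family, was far more abundant, at 1563, 1469, 2148 and 2212 FPKM in control replicates 1 to 4. Its level in cKO replicates 1 to 4 was 2629, 2740.1, 2526 and 3554 FPKM. The cKO libraries all lay above the controls, but cKO replicate 3 exceeded control replicate 4 by little beside the spread within either group. The means were 1848 ± 386 and 2862 ± 469 FPKM (SD, n = 4 each), a ratio of 1.55. Wfdc18 was thus already among the leading transcripts of the control epithelium, where it ranked 8 of all genes by mean FPKM, next to Plet1 at rank 7 and Rplp0 at rank 9. Above it stood mt-Co1, mt-Cytb, Eef1a1, Rplp1, Csn1s2a and mt-Nd1, which encode parts of mitochondrial respiration, translation and casein production, and Krt8 followed at rank 10.

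Glycam1 was measured at 240.0, 265, 609 and 576 FPKM in control replicates 1 to 4. Its FPKM in cKO replicates 1 to 4 were 1414, 1594, 1769 and 2849. Controls 1 and 2 lay close together and well below controls 3 and 4, and all cKO libraries were higher than all controls. Mean Glycam1 was 423 ± 197 FPKM in control and 1906 ± 645 FPKM in cKO (SD, n = 4 each), and its place by mean FPKM moved from rank 101 to rank 9.

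Lao1 had the lowest control level of the 5 genes, at 4.62, 2.52, 7.74 and 5.56 FPKM in control replicates 1 to 4. It reached 35.9, 46.8, 65.9 and 117 FPKM in cKO replicates 1 to 4. The lowest cKO library was well above the highest control. The means were 5.11 ± 2.16 and 66.4 ± 36.0 FPKM (SD, n = 4 each), a ratio of 13.0, the largest ratio of the 5 genes. At least 111 reads supported each Lao1 value.

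Trf was measured at 24.1, 22.2, 36.0 and 32.7 FPKM in control replicates 1 to 4. In cKO replicates 1 to 4 the transferrin gene was measured at 66.7, 50.9, 31.3 and 81.1 FPKM. Here the groups overlapped, because cKO replicate 3 lay below controls 3 and 4. Mean Trf was 28.7 ± 6.63 FPKM in control and 57.5 ± 21.4 FPKM in cKO (SD, n = 4 each), a ratio of means of about 2.0. The Trf level is also uncertain for its annotation, since its exons overlap those of Gm20425 on the same strand and 79.8% of the 50-base stretches of its longest transcript occur in Gm20425. At most 3 reads were assigned to Gm20425 in a library, and how reads in shared exons were assigned is not given in the sources used here.

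**Figure D1:**
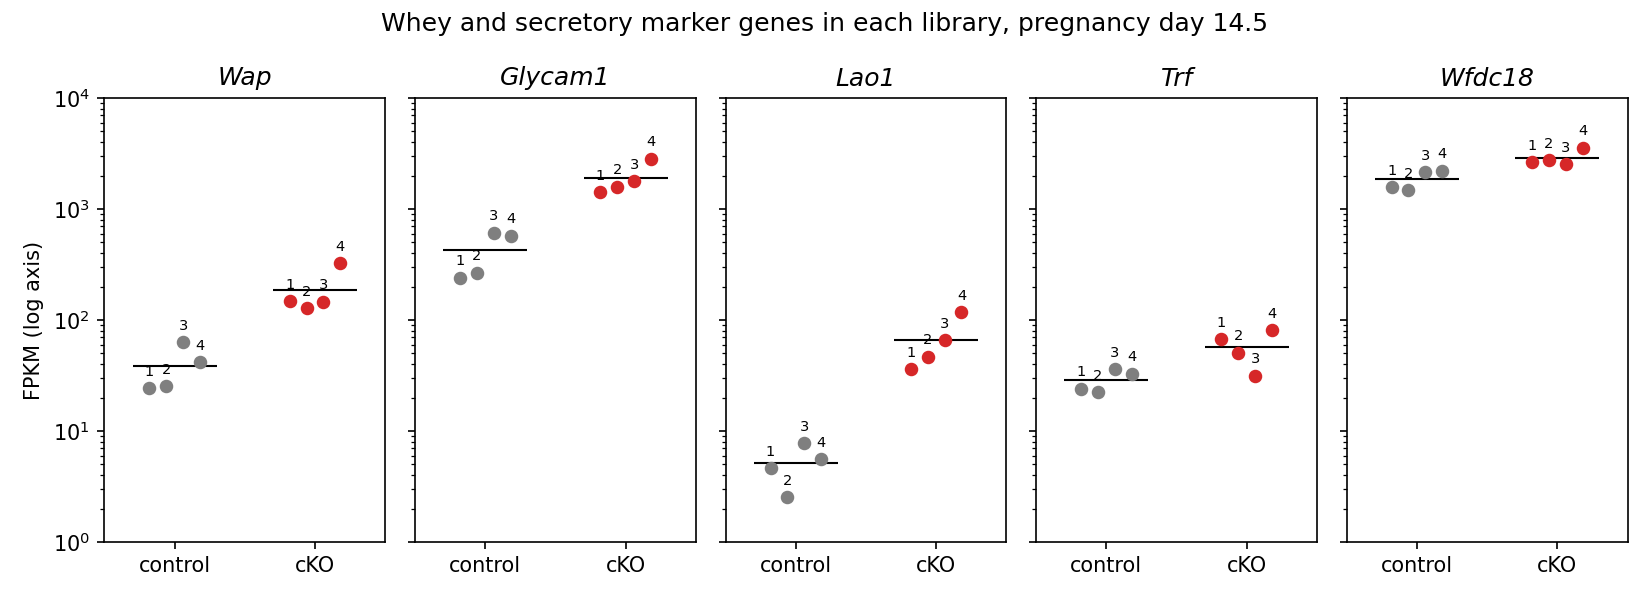
FPKM of Wap, Glycam1, Lao1, Trf and Wfdc18 on a log axis in each control (grey) and cKO (red) library, with the replicate number above each point and the group mean of 4 libraries as a bar. The cKO libraries lie above all controls for 4 of the 5 genes, and Trf in cKO replicate 3 (31.3 FPKM) lies within the control range.

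Every cKO library lay above every control library for 4 of the 5 genes, beside 6.10% of the 15143 genes tested with limma, and 4.60% of them lay wholly below. Of all genes tested, limma called 0.588% higher and 0.304% lower in cKO at an adjusted p under 0.05, and no test is given for the 5 genes. Nothing is read from their count, since the genes were chosen on the same contrast. All 5 genes passed the filter on low values (mean FPKM of at least 0.5). The median difference of the 5 genes was 2.24 on the log2(FPKM + 1) scale, beside 0.00 for all genes tested. A different number of cells of a type and a different amount of RNA per cell cannot be told apart in such bulk libraries.

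The order of levels by FPKM in control was Wfdc18, Glycam1, Wap, Trf and Lao1. Wap lay above Trf in all 4 controls, by little in replicates 1 and 2. In cKO the order was Wfdc18, Glycam1, Wap, Lao1 and Trf. Lao1 lay above Trf there only in replicates 3 and 4, while Wfdc18 was above Glycam1 in every library. In reads, the 5 genes together took 0.338 ± 0.0879% of all reads on genes in control (SD, n = 4) and 0.793 ± 0.176% in cKO. The caseins and alpha-lactalbumin took 2.58 ± 0.366% and 5.44 ± 1.19% of reads in the same libraries.

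Wap and Glycam1 stood in a similar proportion in all 8 libraries. The ratio of their FPKM, Glycam1 over Wap, lay between 9.70 and 13.9 in control and between 8.82 and 12.4 in cKO, while within the control group alone Wap varied 2.59-fold and Glycam1 2.54-fold from the lowest to the highest library. Wfdc18 over Glycam1 was 4.86 ± 1.42 in control (SD, n = 4) and 1.56 ± 0.277 in cKO, a smaller lead of Wfdc18 in every cKO library. Glycam1 over Lao1 was 84.8 ± 25.0 in control (SD, n = 4) and 31.2 ± 6.88 in cKO, also without overlap. Against Csn2, the gene of beta-casein, Glycam1 had a ratio of FPKM of 0.248 ± 0.0919 in control (SD, n = 4) and 0.553 ± 0.0605 in cKO, with no overlap between the groups. Wfdc18 over Csn2 was 1.11 ± 0.114 in control (SD, n = 4) and 0.859 ± 0.137 in cKO, with control replicate 2 within the cKO range.

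The luminal markers did not differ in parallel. The summed FPKM of the 7 luminal markers was 6238 ± 731 in control (SD, n = 4) and 6070.2 ± 932 in cKO, with overlapping groups. Lao1 over this sum differed between the groups by a ratio of means of 13.2, close to that of Lao1 alone. The same ratio was 4.97 for Wap and 4.70 for Glycam1. It was 2.11 for Trf and 1.62 for Wfdc18, and for Trf cKO replicate 3 again lay in the control range (0.00469, controls 0.00403 to 0.00534).

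Mice of the same group differed, and the 5 genes shared much of that difference. Controls 3 and 4 were higher than controls 1 and 2 for all 5 genes, and cKO replicate 4 was highest for all 5. The same held for Csn1s1, Csn2, Csn1s2a, Csn3 and Elf5 and for the summed luminal markers (5986, 5321, 6736 and 6909 FPKM in control replicates 1 to 4, and 7048 FPKM in cKO replicate 4). The split of the controls was not particular to secretory genes. Summed myoepithelial markers (1983, 2078, 2664 and 2701 FPKM) had it too, as did the hormone-sensing luminal, adipocyte and red blood cell sums. None of these sums was highest in cKO replicate 4, and the sums of the other marker lists had no such split. On the log2(FPKM + 1) scale the deviation of Wap from its group mean was 0.80 in control replicate 3, -0.54 in control replicate 1 and 0.90 in cKO replicate 4. Trf departed from the others in cKO replicate 3, at -0.77 from its group mean, where Lao1 was at 0.13 and Glycam1 at -0.05. Lalba, the gene of the whey protein alpha-lactalbumin, was lowest in the same cKO library, at 14.5 FPKM beside 86.8, 31.1 and 52.9 FPKM in cKO replicates 1, 2 and 4. The coefficient of variation was 46.9% for Wap, 46.7% for Glycam1 and 42.3% for Lao1 in control, but 23.1% for Trf and 20.9% for Wfdc18. In cKO the genes did not divide in this way, with 49.2% for Wap, 54.2% for Lao1, 37.2% for Trf, 33.8% for Glycam1 and 16.4% for Wfdc18.

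By a rule of likeness, the 8 other genes whose deviations from their group means followed those of the 5 genes most closely over the 8 libraries were 1700029I15Rik, Syf2, Tmem144, Yipf1, Gm14286, Bad, Eno1 and Aup1. Their Pearson r ran from 0.993 to 0.977, the highest of 12918 genes compared, and describes the spread between mice within the groups. None of them was called different between cKO and control by limma, the lowest adjusted p being 0.0988 for Tmem144, and 2480 of all genes tested had an unadjusted p under 0.05. Eno1, the glycolytic enzyme enolase, was measured at 84.2, 80.8, 105 and 99.2 FPKM in control replicates 1 to 4. In cKO replicates 1 to 4 it was 93.6, 91.4, 95.6 and 111 FPKM, again highest in replicate 4 but with no gap between the groups.

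The 5 genes lie on 4 chromosomes of GRCm38 and do not form a cluster. Wap (ENSMUSG00000000381) lies at chr11:6635482-6638637 on the minus strand, with 4 exons, and Wfdc18 (ENSMUSG00000000983) on the same chromosome at chr11:83709015-83711348 on the plus strand, also with 4 exons. Glycam1 (ENSMUSG00000022491) lies at chr15:103562759-103565081, minus strand, with up to 4 exons. Lao1 (ENSMUSG00000024903) lies at chr4:118961578-118968912, plus strand, with up to 7 exons, and Trf (ENSMUSG00000032554) at chr9:103204001-103230444, minus strand, with up to 18. No exon of Wap, Glycam1, Lao1 or Wfdc18 overlaps another annotated gene, and none of the 50-base stretches of their longest transcripts occurs in a transcript of another gene.

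The nearest expressed genes (mean FPKM of at least 0.5) on either side were examined for each gene. An assembled locus without a gene symbol, which lies upstream of Trf on the same strand (chr9:103231099-103245514) with its 3′ end 654 bases from the 5′ end of Trf, was measured at 2.27, 2.09, 2.75 and 1.99 FPKM in control replicates 1 to 4. In the cKO libraries, in the same order, it was measured at 4.11, 5.01, 3.59 and 5.11 FPKM, and it rose by 0.73 on the log2(FPKM + 1) scale (SE 0.11, limma adjusted p = 0.0339, higher in 4 of 4 cKO libraries). Within cKO, the locus and Trf were both lowest in replicate 3 and highest in replicate 4, but in control the locus was lowest in replicate 4 and Trf in replicate 2. When single libraries were omitted, the locus was called only without cKO replicate 3, with adjusted p from 0.0471 to 0.0977, and it was not called with no filter on low values (limma adjusted p = 0.0885). Srprb, a subunit of the signal recognition particle receptor, lies 1863 bases from Trf on the other side and had 9.28 ± 0.816 FPKM in control and 9.19 ± 0.614 FPKM in cKO (SD, n = 4 each; limma adjusted p = 0.959).

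Next to Lao1, the lncRNA gene Gm12863 lies 6658 bases away on the opposite strand. Its FPKM were 0, 0, 0.334 and 0.199 in control replicates 1 to 4. In cKO they were, in the same order, 1.45, 0.679, 3.17 and 4.52. The groups did not overlap, but the difference did not pass the adjusted threshold (1.47 on the log2(FPKM + 1) scale, SE 0.33, limma adjusted p = 0.0810; 3.44 with a pseudocount of 0.1 and 3.96 by limma-voom, also not called), and at most 45 reads lay on it in a library. Slc2a1, the glucose transporter GLUT1 gene at 139798 bases on the other side, had a difference of 0.03 (limma adjusted p = 0.949).

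Around Wap, Ramp3 encodes a partner protein of calcitonin family receptors and lies 19883 bases away. Ramp3 was at 5.81 ± 0.825 FPKM in control and 3.58 ± 0.598 FPKM in cKO (SD, n = 4 each), with every cKO library lower but a limma adjusted p of 0.0654. Tbrg4, 9414 bases from Wap on the other side, had a difference of -0.14 (limma adjusted p = 0.461). Wfdc17 is the nearest neighbour of Wfdc18, at 2746 bases on the same strand, and belongs to the same domain family. Its mean was lower in cKO, at 9.02 ± 2.42 FPKM beside 11.7 ± 2.45 FPKM in control (SD, n = 4 each; limma adjusted p = 0.408). Heatr6 beside Wfdc18 and both neighbours of Glycam1, Ppp1r1a and Gm9108, had differences of -0.04, -0.03 and 0.06 with limma adjusted p of 0.883, 0.925 and 0.845.

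The promoters of 4 of the 5 genes are shown because milk protein genes are known targets of shared factors. RefSeq windows of 300 bases (GRCm38.p6), from 250 bases before to 50 bases after the RefSeq start, were searched on both strands for STAT5 (TTCNNNGAA), C/EBP (TTGCNNAA), NF1 half-sites (TTGGCA) and TATAAA. Over the 32851 windows of the table, which cover 27025 genes, 8.30% held the STAT5 letters, 10.8% those of C/EBP, 14.1% the NF1 half-site and 13.6% TATAAA. Over the 12928 windows of genes tested here the shares were 6.84%, 8.62%, 11.3% and 7.5%. Glycam1 (chr15:103565032-103565331, minus strand) held a STAT5 match from base -145 and an NF1 half-site from base -156, which do not overlap. Wfdc18 (chr11:83708754-83709053, plus strand) held TATAAA from base -31. The windows of Wap (chr11:6638600-6638899, minus strand) and Lao1 (chr4:118961717-118962016, plus strand) held none of the 4 sets of letters. The Lao1 window lies wholly inside the gene as the deposited table has it, so bases upstream of that start were not searched. The windows of Csn1s1, Csn2 and Csn1s2a, genes of the caseins, each held a STAT5 match. For Csn3 and Csn1s2b there was no window to search. The window of Lalba held no STAT5 match but an NF1 half-site from base -120. RefSeq starts and gene starts of the deposited table differ by 0 bases for Glycam1, 12 for Wap, 11 for Wfdc18, 389 for Lao1, 205 for Csn2 and 117 for Csn1s2a. The match of Csn1s2a lies after the RefSeq start and before that of the deposited table, and the match of Csn2 lies before the RefSeq start but inside the gene as the deposited table has it. Matches are in capitals below, each window on the strand of its gene.
Glycam1: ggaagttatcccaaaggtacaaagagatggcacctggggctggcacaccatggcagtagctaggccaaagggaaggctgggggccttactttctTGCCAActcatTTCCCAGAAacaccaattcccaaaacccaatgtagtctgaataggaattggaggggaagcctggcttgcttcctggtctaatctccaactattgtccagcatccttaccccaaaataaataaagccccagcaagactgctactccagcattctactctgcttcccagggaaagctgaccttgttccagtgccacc
Wfdc18: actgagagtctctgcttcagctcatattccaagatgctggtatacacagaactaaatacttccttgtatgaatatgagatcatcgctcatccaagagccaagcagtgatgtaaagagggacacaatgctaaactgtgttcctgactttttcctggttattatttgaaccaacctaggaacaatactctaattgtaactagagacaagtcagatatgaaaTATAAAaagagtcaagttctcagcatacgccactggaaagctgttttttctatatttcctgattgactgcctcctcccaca
Wap: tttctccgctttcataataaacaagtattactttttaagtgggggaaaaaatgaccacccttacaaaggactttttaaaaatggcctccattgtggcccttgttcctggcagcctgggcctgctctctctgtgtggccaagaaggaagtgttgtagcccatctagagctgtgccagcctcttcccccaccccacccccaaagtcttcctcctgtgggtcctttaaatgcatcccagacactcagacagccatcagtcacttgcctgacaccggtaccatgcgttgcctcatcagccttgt
Lao1: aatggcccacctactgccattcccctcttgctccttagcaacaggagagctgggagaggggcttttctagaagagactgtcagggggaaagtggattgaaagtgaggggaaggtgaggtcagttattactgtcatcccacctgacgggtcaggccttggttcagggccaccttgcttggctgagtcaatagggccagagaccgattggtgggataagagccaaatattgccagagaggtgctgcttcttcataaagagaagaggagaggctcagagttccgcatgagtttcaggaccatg

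Among related genes, the caseins and alpha-lactalbumin were the list closest to the 5 genes in role. Csn2 rose from 1653 ± 193 to 3409 ± 843 FPKM (SD, n = 4 each), a difference of 1.02 on the log2(FPKM + 1) scale (SE 0.18, limma adjusted p = 0.0461). Csn1s2a, an alpha-casein gene, rose by 1.43 (SE 0.24, limma adjusted p = 0.0377, higher in 4 of 4 cKO libraries). These 2 of the 6 genes passed the test, and none was called lower. Csn1s1, Csn3 and Csn1s2b did not pass (limma adjusted p = 0.0647, 0.0591 and 0.0624), though every cKO library was higher and all 3 were called with TPM scaling (limma adjusted p = 0.0321, 0.0305 and 0.0493) and by limma-voom, and Lalba overlapped between the groups (limma adjusted p = 0.419). The median difference of the list was 0.91, beside 0.00 over all genes tested.

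The WAP domain family beyond Wap and Wfdc18 holds protease inhibitors and antimicrobial proteins. Of its 21 genes, 6 were expressed enough to be tested and 0 were called by limma, with 1 gene at an unadjusted p under 0.05 and 0 called by limma-voom on recovered reads. Slpi, the secretory leukocyte protease inhibitor, had 40.9 ± 14.0 FPKM in control and 33.3 ± 4.10 FPKM in cKO, and Wfdc12 had 37.1 ± 11.5 and 27.0 ± 4.17 FPKM (SD, n = 4 each). Wfdc3 was the gene with the lowest p, at 3.15 ± 0.946 FPKM in control and 6.10 ± 1.39 FPKM in cKO (limma adjusted p = 0.0837). The median difference of the family was -0.26.

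Among the other whey and defence proteins, 2 of 20 genes tested rose and 1 fell. Spp1, which encodes osteopontin, a secreted phosphoprotein of milk and bone, rose by 2.20 (SE 0.29, limma adjusted p = 0.0266). Saa3, an acute phase protein made in mammary epithelium, rose by 0.76 (SE 0.11, limma adjusted p = 0.0313). Chil1, a secreted chitinase-like protein, fell by 0.57 (SE 0.09, limma adjusted p = 0.0343). The most abundant others were not called, with Cd14 at 729 ± 59.2 FPKM in control and 726 ± 34.4 FPKM in cKO (SD, n = 4 each), B2m at a difference of -0.30, Clu at -0.26 and Lcn2 at 0.31. Over the alternatives run, B2m ranged from -0.39 to -0.16 and Clu from -0.34 to -0.16, with -0.16 for both without cKO replicate 3. The median of the list was -0.06.

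Transferrin carries iron, and of the 17 tested genes of iron handling 1 rose. Slc39a14, which imports iron not bound to transferrin, rose by 0.42 (SE 0.08, limma adjusted p = 0.0488), a call that was lost with TPM scaling (adjusted p = 0.107, and 0.0788 with milk genes left out of the sum) and without the trend (adjusted p = 0.0656). Ltf, which encodes lactoferrin, the other iron-binding protein of the transferrin family in milk, had 234 ± 26.9 and 243 ± 18.2 FPKM (SD, n = 4 each; limma adjusted p = 0.814). Fth1, the heavy chain of ferritin, had 471 ± 53.1 and 759 ± 174 FPKM (limma adjusted p = 0.0861, and 0.0428 by limma-voom), while the light chain gene Ftl1 had a difference of -0.06 and the iron importer Slc11a2 one of 0.08. The median of the list was 0.08.

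Lao1 belongs to the enzymes that oxidise amines and amino acids. The list taken for this class also holds Lpo, which encodes a peroxidase. Of its 11 genes tested, 0 were called by limma, with 2 higher and 1 lower at an unadjusted p under 0.05 and 1 called by limma-voom. The 2 higher genes were Lpo and Ddo. Lpo had 0.982 ± 0.219 FPKM in control and 2.80 ± 1.10 FPKM in cKO (SD, n = 4 each; limma adjusted p = 0.0775). Smox and Maoa, which oxidise polyamines and monoamines, had differences of -0.10 and 0.02, and Lox and Aoc2 had -0.17 and -0.22. The difference of Lox was -0.43 without cKO replicate 1 and 0.03 without cKO replicate 3. The median was 0.02.

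The regulators of prolactin and STAT5 signalling showed no call among 20 genes tested by limma, with 4 higher and 1 lower at an unadjusted p under 0.05 and 1 called by limma-voom. Cebpb, which encodes C/EBP beta, had 281 ± 45.0 FPKM in control and 248 ± 58.8 FPKM in cKO (SD, n = 4 each). Socs3, a feedback inhibitor of cytokine receptors, had a difference of 0.18, the ETS factor gene Ehf 0.28 and Akt1 -0.04. Elf5, which encodes an ETS factor of alveolar cells and is named here after its values were seen, had 21.3 ± 3.91 and 38.5 ± 8.02 FPKM with no overlap (limma adjusted p = 0.0591), and was called with TPM scaling (limma adjusted p = 0.0305) and by limma-voom (adjusted p = 0.0239). Socs1, also named after its values were seen, lay below the controls in every cKO library. It had 10.9 ± 1.15 FPKM in control and 7.70 ± 1.41 FPKM in cKO (limma adjusted p = 0.116). Of the 20 genes, 17 overlapped between the groups. Among these, and also named after their values were seen, Prlr, Jak2, Stat5a and Stat5b had differences of 0.07, 0.0, 0.04 and 0.14. Socs2, Src and Tnfsf11 overlapped too, with limma adjusted p of 0.950, 0.987 and 0.465. The median of the list was 0.06.

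Glycam1 is mucin-like, and among 12 glycoprotein mucins and sialomucins 1 rose. Muc15, a membrane mucin of the milk fat globule, rose from 73.1 ± 3.03 to 142 ± 27.3 FPKM (SD, n = 4 each), by 0.94 on the log2 scale (limma adjusted p = 0.0266). Muc1 and Muc4, other membrane mucins of the epithelium, had differences of 0.39 and 0.24 (limma adjusted p = 0.132 and 0.177). Cd164 and Dag1 had differences of 0.01 and -0.06. The median was 0.10.

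**Figure D2:**
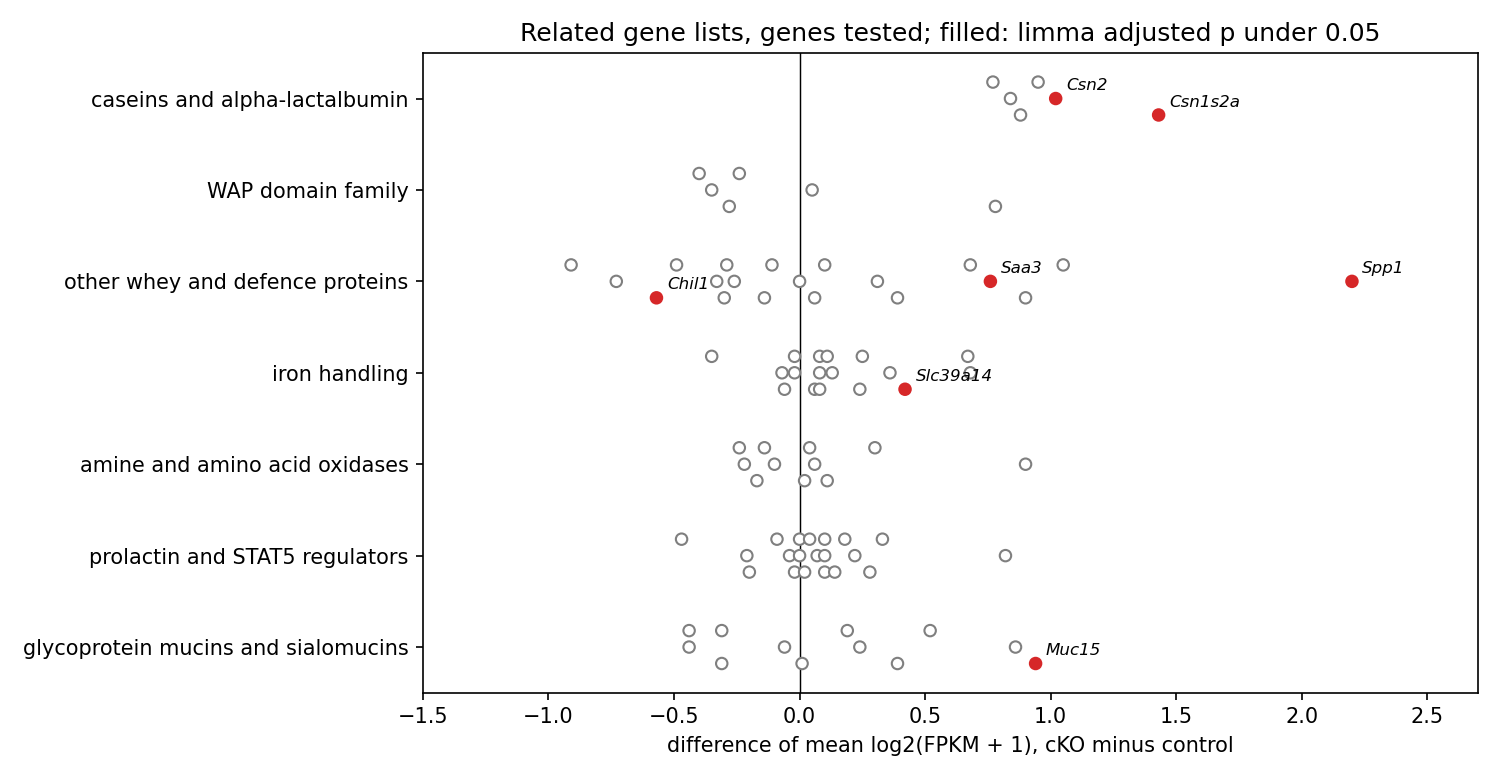
Difference of mean log2(FPKM + 1), cKO minus control (4 libraries each), for each tested gene of 7 related lists, with genes at a limma adjusted p under 0.05 filled and named. The calls are Csn2, Csn1s2a, Spp1, Saa3, Slc39a14 and Muc15 to the right of 0 and Chil1 to the left.

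These calls rested on all 8 libraries. When each library was left out in turn, Csn2 and Slc39a14 were called in 0 of 8 limma fits, with adjusted p from 0.0575 to 0.127 and from 0.0736 to 0.125, while their differences were 0.87 to 1.12 and 0.37 to 0.45. Csn1s2a and Chil1 were called in 1 of 8 (without cKO replicate 1), Saa3 in 1 (without cKO replicate 2), Spp1 in 2 (without cKO replicate 1 or 3) and Muc15 in 3 (without cKO replicate 1, 3 or 4). The highest adjusted p of these was 0.0990 for Csn1s2a, 0.0977 for Chil1, 0.0893 for Saa3, 0.0786 for Spp1 and 0.0837 for Muc15. With no filter on low values (31373 genes tested), 0 of these 7 genes were called, with limma adjusted p from 0.0607 for Muc15 to 0.214 for Csn2. Among all genes tested, 135 were called, but 5, 1, 9 and 0 without control replicates 1 to 4 in turn, and 78, 11, 77 and 12 without cKO replicates 1 to 4, with at least 2042 genes at an unadjusted p under 0.05 each time.

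Hormone-sensing luminal cells and cells other than luminal ones were followed by whole marker lists. The hormone-sensing luminal markers, led by Areg at 17.1 FPKM, summed to 28.5, 27.2, 43.0 and 35.4 FPKM in control replicates 1 to 4. The cKO replicates summed in the same order to 19.4, 27.1, 24.1 and 20.9 FPKM. All cKO libraries were lower than the controls, by little for cKO replicate 2, but only 3 of 5 markers had lower means and Areg and Cited1 made up most of the sum. Cited1 was called lower (limma adjusted p = 0.0268), though with a library left out only without cKO replicate 1 (adjusted p up to 0.0877), and not with no filter on low values (adjusted p = 0.0794). Their part in the levels of the 5 genes was not tested.

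Fat cells lie around the epithelium, and 6 of 6 adipocyte markers, led by Fabp4 at 104 FPKM, had higher means in cKO. Their sums were 92.4, 78.7, 122 and 105 FPKM in control replicates 1 to 4. The sums were 102, 137, 136 and 136 FPKM in cKO replicates 1 to 4. Fabp4 made up most of these sums and had a ratio of means of 1.15, while the 5 other markers, at lower levels, had ratios from 2.06 (Plin1) to 6.47 (Cfd). The summed levels overlapped in cKO replicate 1, Cidec was called higher (limma adjusted p = 0.0377; up to 0.116 with a library left out, called only without cKO replicate 1, and 0.101 with no filter), and the part of these cells in the levels of the 5 genes was not tested.

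Liver and high endothelial venules are known sources of Trf and Glycam1. The 5 hepatocyte markers were at or near 0, with a summed level of at most 0.599 FPKM, Apoa1 as the most abundant at 0.244 FPKM and Ttr at 0 in all 8 libraries. The 10 markers of high endothelial venules and lymph node, led by Selp at 114 FPKM, summed to 185 ± 10.6 FPKM in control and 155 ± 26.5 FPKM in cKO (SD, n = 4 each), and 9 of 10 had lower means in cKO. Selp and Ackr1 made up most of this sum. The exception was Madcam1, an addressin of these venules named here after its values were seen, at 2.95 ± 0.708 FPKM in control and 6.34 ± 2.32 FPKM in cKO (SD, n = 4 each), with every cKO library higher (limma adjusted p = 0.113), and the part of these cells in the level of Glycam1 was not tested. Their enzyme genes Chst4 and Fut7, which build the sulphated sugars of L-selectin ligands, did not exceed 0.262 and 0.343 FPKM. The endothelial markers summed to 74.7 ± 4.55 and 62.1 ± 10.3 FPKM, and 1 of 5, Vwf, was called lower (limma adjusted p = 0.0268; up to 0.0877 with a library left out, called only without cKO replicate 1, and 0.0633 with no filter).

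Blood and immune markers had lower mean sums in cKO, and their part in the levels of the 5 genes was not tested. The macrophage markers, led by C1qa at 54.3 FPKM, summed to 94.6 ± 13.0 FPKM in control and 71.5 ± 12.0 FPKM in cKO, and the red blood cell markers, led by Hba-a1 at 15.5 FPKM, to 25.5 ± 3.32 and 18.2 ± 6.53 FPKM (SD, n = 4 each). B and plasma cell markers, led by Igkc at 127 FPKM, summed to 670.2 FPKM in control replicate 3, beside 131, 62.3 and 79.0 FPKM in controls 1, 2 and 4. In cKO replicates 1 to 4 these sums were 55.3, 69.3, 43.1 and 88.3 FPKM. Control replicate 3, with the most B cell RNA, was also the highest control for 4 of the 5 genes, all but Wfdc18. The myoepithelial markers summed to 2357 ± 379 and 2217 ± 324 FPKM, with 4 of 9 lower in mean. Among them Trp63 lay below and Oxtr above the controls in every cKO library (limma adjusted p = 0.181 and 0.0644), and both are named after their values were seen.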

How the data were processed

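RNA of mammary epithelial cells was sequenced from NEBNext Ultra libraries, and the authors used FastQC for read quality, Hisat2 for mapping to GRCm38 and DESeq2 for their own differential expression. The submitters' processing notes name StringTie 1.3.3b, featureCounts 1.5.0-p3 and the build mm9, but the coordinates of the table equal those of GENCODE vM21 for 99.68% of the identifiers found there, and are therefore given as GRCm38. The authors deposited FPKM for 55933 genes. Multiplied by gene length, 100% of values above 0 were whole multiples of a step per library (tolerance 0.01 of a read), which gave the reads per gene, and the FPKM already carry median-of-ratios size factors.

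Because FPKM are not counts, log2(FPKM + 1) was tested with limma 3.58.1 in R 4.3.3 (empirical Bayes with trend, Benjamini-Hochberg adjustment over the 15143 genes whose FPKM averaged 0.5 or more). Differences on this scale understate the change of low genes. In 5 simulated sets of libraries with 200 changed genes, on average 72.4% of these were called, and 4.96% of the calls were unchanged genes. The simulated libraries were independent, with a single dispersion (spread between libraries beyond counting) of 0.02 for all genes. The real libraries were not so uniform, so these figures do not measure how reliable the calls here are. The genes described and the lists were chosen with earlier results of these data known, and the lists share Ltf, Cp and Lpo. Genes named are the 5 genes, Bmpr1a, in each list the genes called and the 4 others with the highest mean FPKM, the nearest expressed neighbours, the 8 genes most alike in deviations (mean FPKM of at least 1) and the 10 highest in control. Markers were taken as whole lists. Python 3.11.15 with pandas 2.3.3 and matplotlib 3.10.9 was used otherwise. Alternatives were a pseudocount of 0.1, TPM with and without milk genes in the sum, no filter, a mean FPKM of at least 1, no trend, a replicate block, limma-voom on recovered reads, each library left out and, chosen after seeing the data, a block of replicates 1 and 2 against 3 and 4. The numbers of the replicates do not state a shared litter. Motif shares are over 32851 RefSeq windows.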

Additional observations from a re-analysis of the deposited data

Results flagged for a closer look

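In 14 of 158 groups of 4 libraries, the highest or lowest library lay farther from the rest than Dixon's 95% limit, where chance gives about 1 in 20 groups. Several of these values are from cKO replicate 4, the library with the highest levels of all 5 whey and secretory genes. Wap was 323 FPKM there, Fth1 1019 FPKM, Syf2 28.8 FPKM, Yipf1 3.41 FPKM, Bad 6.61 FPKM and 1700029I15Rik 1.56 FPKM, each far above the other cKO libraries. The last 4 of these genes were named for deviations like those of the 5 genes, so their high value in this library is part of that choice.

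In control replicate 3, Csn1s2b was high at 0.687 FPKM, Socs3 at 91.4 FPKM and the summed B and plasma cell markers at 670.2 FPKM. In cKO replicate 3, Ehf was low at 45.0 FPKM, Slpi was high at 39.4 FPKM, and Wfdc18 over the summed luminal markers was low at 0.378. In cKO replicate 1, the summed adipocyte markers were low at 102 FPKM and the summed red blood cell markers high at 28.0 FPKM.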

How the results depend on the processing

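The 5 genes were chosen on this contrast, so no support is drawn from their direction under the alternatives. With no filter, no trend or a block, their differences equal those of the main fit by design. The direction of all 5 genes was the same under every alternative run. The difference on the log2 scale ranged over these from 1.95 to 2.51 for Wap, 2.02 to 2.46 for Glycam1, 3.08 to 3.66 for Lao1, 0.73 to 1.18 for Trf and 0.53 to 0.74 for Wfdc18, and their median from 1.95 to 2.46. Counts of calls were less stable. Of all genes, 135 were called, 10 with no filter on low values (31373 genes tested), 252 by limma-voom, 442 with the block of 2 sets given below and 0 to 78 with a library left out. Of the 135 calls 89 were higher in cKO (65.9%), and with TPM 70 of 132 (53%). With no filter, 0 caseins, 0 other whey and defence genes, 0 iron genes and 0 mucins were called, at a larger number of tests, and 3235 genes had an unadjusted p under 0.05. By limma-voom 5 caseins, 6 other whey and defence genes and 3 iron genes were called. The same fit called 1 gene of the oxidase list and 1 prolactin and STAT5 regulator. With TPM, with or without milk genes in the sum, 5 caseins and 1 regulator, Elf5, were called, and with TPM 0 iron genes. Without trend 0 iron genes were called. The cause was not tested. When single libraries were omitted, the lists gave 0 to 1 (caseins), 0 to 3 (other whey and defence), 0 to 1 (iron) and 0 to 1 (mucins), with fewer samples in each fit.

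With the replicate number as a block (paired fit), 50 genes were called, with 4 caseins, 1 other whey and defence gene, 0 iron genes and 1 regulator, again Elf5. The calls of Chil1 (limma adjusted p = 0.0551), Saa3 (0.0604), Slc39a14, Cited1 and Vwf (0.0614 each), Cidec (0.0727) and the locus beside Trf (0.0749) were not kept in this fit. Same-numbered libraries correlated in their deviations at 0.111 on average (0.08 to 0.137), other libraries of the same set (replicates 1 and 2, or 3 and 4) at 0.13 and libraries of different sets at -0.12 (-0.21 to -0.072). Not every library correlated best with its own number, so the libraries share a number and no pairing was assumed. A block of these 2 sets, which no label names and which was chosen after seeing the data, gave 442 calls (271 higher). These held 5 caseins, 1 WAP domain gene, 5 other whey and defence genes and 3 iron genes. Also called were 1 gene of the oxidase list, 2 regulators and 1 mucin. Over single genes and alternatives together, a call was lost 97 times and gained 26 times, and 910 values kept their side of the threshold or, for the 5 genes, moved by less than the spread between mice. Differences of genes at low levels moved with the scale, at 0.86 (1.73 with a pseudocount of 0.1, 1.93 by limma-voom) for Cidec, 0.77 (1.54 and 1.74) for Csn1s2b and 1.47 (3.44 and 3.96) for Gm12863. Counting depth limits Gm12863, with 0 to 45 reads.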
